A study of Homo sapiens with 5 samples.

Results

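The cell-surface proteins that prostate cancer treatments and imaging agents are aimed at were followed at the RNA level in C4-2B cells whose HOXB13 gene carries the K13A substitution. The set is a list of 9 genes, FOLH1, STEAP1, STEAP2, TMEFF2, PSCA, CD276, HPN, CEACAM5 and DLL3. They were looked up by name among the 58812 gene identifiers of the count table. The list itself was chosen with earlier results of these data known. All 9 were found, 8 had reads in every library, and those 8 passed the filter on low counts. C4-2B is a human line of metastatic castration-resistant prostate cancer, and HOXB13 is a homeodomain transcription factor of the prostate lineage. The tested cells are C5K13A (1 library) and C4K13A (2 libraries), each a mutant clone, so that an effect of the substitution and a difference between clones cannot be told apart. The reference cells are parental C4-2B (2 libraries). The labels name no treatment other than growth in C4-2B medium, which all 5 libraries share. They do not say whether the replicates of a group were grown separately. Each p-value of a single clone thus reflects library-to-library spread alone, part or all of which may be technical. The test of both clones pools 3 libraries of 2 clones as 1 group, so its spread also holds the difference between the clones. There n = 3 counts libraries, not clones.

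FOLH1, better known as prostate-specific membrane antigen, is a glutamate carboxypeptidase used for imaging and radioligand therapy. STEAP1 and STEAP2 are multi-pass membrane proteins of a metalloreductase family, HPN (hepsin) is a membrane-anchored serine protease, and TMEFF2 (tomoregulin) is a single-pass protein with follistatin-like and EGF-like domains. CD276 (B7-H3) is an immune checkpoint ligand, PSCA and CEACAM5 are held in the membrane by a lipid anchor, and DLL3 is an inhibitory Notch ligand known as a target in neuroendocrine tumours. HOXB13 sets gene expression in prostate epithelium, and several of these antigens are known markers of luminal prostate cells.

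Library totals ran from 43190276 to 57282373 counts. HOXB13 itself stood at 352 CPM (counts scaled to library size with TMM factors) in C5K13A and at 344 and 348 CPM in C4K13A, against 338 and 448 CPM in parental cells, and a gene-level count cannot show the K13A substitution. The libraries read as luminal prostate cells, with KLK3 (prostate-specific antigen) at 1859 to 3103 CPM. The markers of other cell types were low in all libraries, the summed level of 9 neuroendocrine markers reaching 4.25 to 12.7 CPM and that of 7 leukocyte markers 0.573 to 1.16 CPM. Mitochondrial ribosomal RNA left after depletion was uneven, at 669 CPM in C5K13A and 63.2 and 365 CPM in C4K13A, against 28.0 and 1761 CPM in parental cells. By the chi-square of their counts per gene the parental libraries were the most different of all pairs (144.5). C5K13A was closest to C4K13A library 2 (45.1), followed by parental library 2 (47.0). Both pairs were about as close as the C4K13A libraries were to each other (45.8).

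The promoter windows of TMEFF2, STEAP1 and STEAP2 are shown because TMEFF2 is the antigen that differed most and because STEAP1 and STEAP2 are next to each other and varied unequally. Each window is the 250 bases before a RefSeq transcript start (GRCh38.p14), read in the direction of the gene. Capitals mark matches on either strand to the HOXB13 forms CAATAAA and TCGTAAA, the androgen half-site AGAACA, the E-box CACGTG and the CCAAT box, none of which overlapped here. The windows of TMEFF2 and both windows of STEAP2 lie inside the wider gene spans of GENCODE v29, downstream of the outermost start.
TMEFF2, chr2:192194934-192195183, minus strand: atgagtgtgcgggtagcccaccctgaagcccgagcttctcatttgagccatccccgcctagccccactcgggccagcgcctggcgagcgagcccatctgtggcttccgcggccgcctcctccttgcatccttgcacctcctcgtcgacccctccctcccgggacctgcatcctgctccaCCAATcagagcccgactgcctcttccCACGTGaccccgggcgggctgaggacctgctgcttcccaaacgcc
STEAP1, chr7:90154219-90154468, plus strand: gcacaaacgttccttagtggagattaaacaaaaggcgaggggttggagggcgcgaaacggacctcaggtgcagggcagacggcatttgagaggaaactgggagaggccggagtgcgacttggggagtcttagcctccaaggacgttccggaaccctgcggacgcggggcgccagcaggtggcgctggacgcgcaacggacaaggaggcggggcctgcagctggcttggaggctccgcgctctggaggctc
STEAP2, first start, chr7:90211490-90211739, plus strand: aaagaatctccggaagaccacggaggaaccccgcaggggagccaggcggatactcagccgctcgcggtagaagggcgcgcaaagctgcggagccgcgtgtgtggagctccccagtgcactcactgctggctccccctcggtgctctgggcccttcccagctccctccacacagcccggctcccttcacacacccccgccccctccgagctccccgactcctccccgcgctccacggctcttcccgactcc
STEAP2, second start, chr7:90213570-90213819, plus strand: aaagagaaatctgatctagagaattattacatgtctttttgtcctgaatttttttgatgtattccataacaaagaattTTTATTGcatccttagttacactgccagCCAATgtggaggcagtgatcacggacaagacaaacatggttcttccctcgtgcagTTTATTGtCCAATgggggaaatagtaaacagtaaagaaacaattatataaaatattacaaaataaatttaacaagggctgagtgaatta

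The TMEFF2 window is GC-rich (67.6% G or C, 18 CpG), against medians of 58.0% and 11 CpG over 35116 promoter windows of the same length. It holds 1 CCAAT box 71 bases before the start and 1 E-box 45 bases before it, and neither HOXB13 form. The STEAP1 window (64.4% G or C, 21 CpG) holds none of the marked motifs. The first STEAP2 window has 21 CpG as well and holds none of them. The second STEAP2 window is AT-rich (32.8% G or C, 2 CpG) and carries TTTATTG, the reverse complement of CAATAAA, 172 and 89 bases before the start, with CCAAT boxes at 144 and 81 bases. CAATAAA occurs in 3.66% of all windows, TCGTAAA in 0.444%, AGAACA in 12.4%, CACGTG in 6.34% and CCAAT in 32% of them. These are letter matches only, and no binding was measured here.

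Scaled by exon length, the antigens covered a wide range of levels. FOLH1 was the highest, at 134.5 CPM per kb on average over the 5 libraries (99.0 to 161.6), followed by STEAP1 at 73.5 (68.0 to 78.3), STEAP2 at 52.1 (37.4 to 76.9) and CD276 at 40.1 (27.8 to 51.0). HPN averaged 20.6 CPM per kb (12.7 to 36.2), DLL3 8.02 (6.95 to 8.81) and PSCA 3.79 (2.38 to 4.66). The ranges of STEAP1 and STEAP2, of STEAP2 and CD276 and of CD276 and HPN overlap, so the order of those neighbours is not set by every library. TMEFF2 changed its place in the order. It averaged 0.307 ± 0.258 CPM per kb in the K13A clones (SD, n = 3), the lowest of the detected antigens, and 7.72 ± 2.27 CPM per kb in parental cells (SD, n = 2), where DLL3 averaged 7.87 CPM per kb. CEACAM5 had 0 counts in all 5 libraries, which allows a level of up to 0.0506 to 0.0707 CPM (3 counts per library, counting error only).

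**Figure D1:**
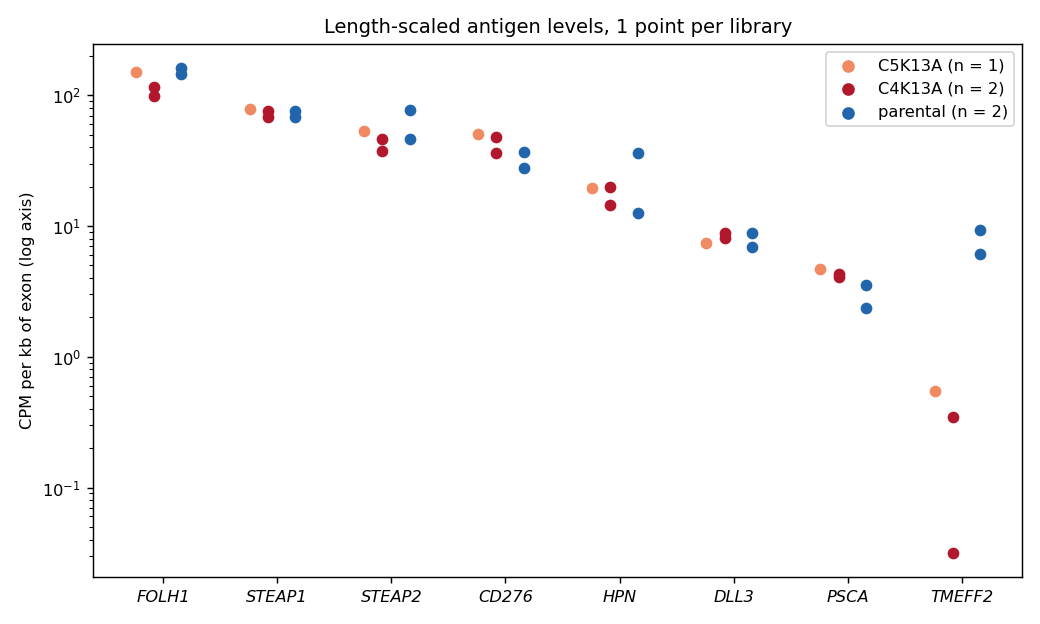
Level of each detected antigen in CPM per kb of exon on a log axis, 1 point per library, with C5K13A (orange), C4K13A (red) and parental (blue) points side by side. FOLH1 sits at the top in every library, while TMEFF2 lies between 0.0317 and 0.544 CPM per kb in the clones and at 6.11 and 9.33 CPM per kb in parental cells. CEACAM5 had 0 counts and is not drawn.

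The first comparison sets both K13A clones (3 libraries) against parental cells (2 libraries). No antigen passed an adjusted p of 0.05 in edgeR's quasi-likelihood test with Benjamini-Hochberg adjustment, where 0.203% of all 20649 genes tested did. DESeq2 called 1 antigen, TMEFF2, beside 555 of all 20649 genes, and limma-voom called 0, beside 11 of all genes. At an unadjusted p under 0.05 there were 2 of 8 antigens, TMEFF2 (lower) and CD276 (higher), against 11% of all genes. Of the 8 fold changes 4 were negative, with a median of -0.15 on the log2 scale, beside a median of -0.00474 over all genes tested.

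Within the clones the picture was uneven. In C4K13A against parental cells 1 of 8 antigens was called, TMEFF2, which was lower. Of the 22743 genes tested there, 0.699% were called and 0.602% were called lower. At an unadjusted p under 0.05 there were 2 antigens, TMEFF2 and FOLH1, both lower, against 12.2% of all genes. In C5K13A against parental cells 0 of 8 were called, with a background of 0.0484%, and in C5K13A against C4K13A 0 of 8, with a background of 0.066%. Both of these rest on a single C5K13A library, which was assumed to vary like the others. For C5K13A against parental cells DESeq2 and limma-voom each called 0 antigens, beside 235 and 0 of all 22743 genes. At an unadjusted p under 0.05 there were 2 antigens, TMEFF2 and CD276, against 6.45% of all genes. For C5K13A against C4K13A both tools again called 0 antigens, beside 182 and 0 of all genes. An unadjusted p of 0.05 was passed by 0 antigens, against 6.42% of all genes. The comparisons with parental cells share the same parental libraries, and so their values are not independent of each other.

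**Figure D2:**
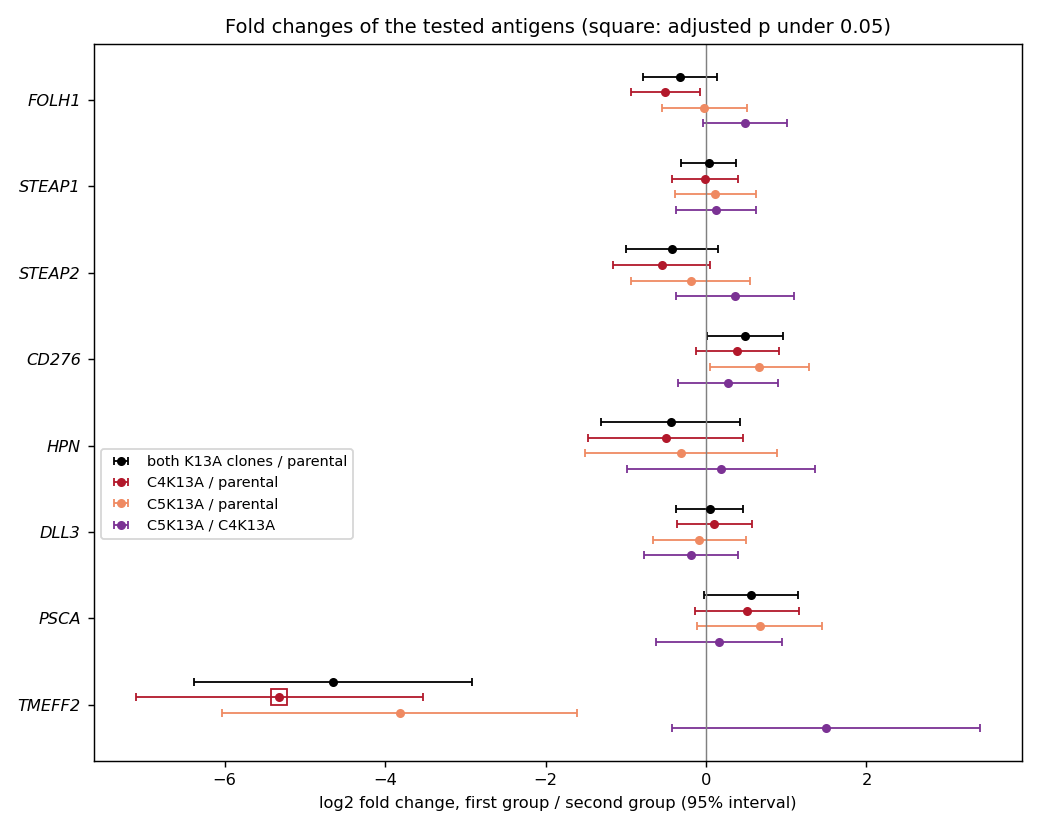
log2 fold change of each tested antigen (rows) with its 95% interval in 4 comparisons, both K13A clones, C4K13A and C5K13A over parental cells, and C5K13A over C4K13A. Only the TMEFF2 value of C4K13A over parental cells, -5.32, carries the square that marks an adjusted p under 0.05, and the TMEFF2 intervals against parental cells lie to the left of those of the other antigens, that of C5K13A (-6.03 to -1.61) ending close to where the C5K13A interval of HPN begins (-1.51).

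TMEFF2 is a shed growth factor-like protein with high transcript levels in prostate and brain, and an antibody-drug target (ENSG00000144339, GRCh38 chr2:191949043-192195709, minus strand, protein coding). It was detected at 3.61 CPM in C5K13A and at 2.30 and 0.210 CPM in C4K13A, against 40.5 and 61.9 CPM in parental cells. Every clone library lay below both parental libraries, and the groups did not overlap. In read counts the clone libraries held 153, 115 and 9 reads, and the parental libraries held 2405 and 3144 reads.

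The mean of TMEFF2 was 2.04 ± 1.71 CPM in the clones (SD, n = 3) and 51.2 ± 15.1 CPM in parental cells (SD, n = 2), a log2 fold change of -4.65 ± 0.75 (SE, 95% interval -6.39 to -2.91), or 25.1-fold lower. This was the 64th smallest of 20649 p-values, with an adjusted p of 0.0824, above the threshold of 0.05. With each of the 5 libraries left out in turn it passed in 2 fits, at -4.11 without C4K13A library 2 (adjusted p = 0.0308) and at -5.32 without C5K13A (adjusted p = 0.0428). It did not pass without C4K13A library 1 (-4.75, adjusted p = 0.153), parental library 1 (-4.92, adjusted p = 0.448) or parental library 2 (-4.31, adjusted p = 0.0959). In C4K13A alone TMEFF2 fell to 1.25 ± 1.47 CPM, against 51.2 ± 15.1 CPM in parental cells (SD, n = 2 each), a log2 fold change of -5.32 ± 0.78 (SE, adjusted p = 0.0287). In C5K13A alone the log2 fold change was -3.82 ± 0.96 (95% interval -6.03 to -1.61), with an adjusted p of 0.417. It did not pass without parental library 1 (-4.10, adjusted p = 0.200) or parental library 2 (-3.49, adjusted p = 0.0793). It did pass without C4K13A library 1 (-3.81, adjusted p = 8.73e-05) and without C4K13A library 2 (-3.82, adjusted p = 7.16e-05), but each clone is then a lone library, assumed to vary like the parental pair, which alone supplies the spread, so these fits say nothing of the spread within C5K13A. In bulk RNA, fewer cells that express a gene and less RNA per cell cannot be told apart.

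The C4K13A libraries themselves differed in TMEFF2. The level of library 1 was 10.9 times that of library 2, and on the log2(CPM + 0.5) scale their gap of 1.98 was wider than that of 99.8% of the genes tested, whose median absolute gap was 0.198. The exact Poisson 95% intervals, which cover counting error only, were 1.89 to 2.75 CPM for library 1 and 0.0962 to 0.399 CPM for library 2. C5K13A against C4K13A gave a log2 difference of 1.50 ± 0.83 (SE, 95% interval -0.42 to 3.42) with an adjusted p of 0.847. That difference was 4.10 without C4K13A library 1 and 0.65 without library 2, values of 1 library against 1 library. Leaving out C4K13A library 1 also moved the C4K13A value against parental cells to -7.91, which then rests on the single library with 9 reads, and leaving out library 2 moved it to -4.47.

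The difference in TMEFF2 was present within each class of residual ribosomal RNA. Each class holds only 1 parental library, so here and below its ratio cannot be told apart from the choice of parental library. Below 200 CPM, C4K13A library 1 stood at 2.30 CPM against 40.5 CPM in parental library 1, a log2 ratio of -4.14. Above it, C5K13A and C4K13A library 2 averaged 1.91 CPM against 61.9 CPM in parental library 2, a log2 ratio of -5.02. No other annotated gene covers exonic bases of TMEFF2. NABP1, the nearest tested protein-coding gene, 252 kb away, had a log2 fold change of -0.27 ± 0.18 in the clones (SE, adjusted p = 0.631).

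**Figure D3:**
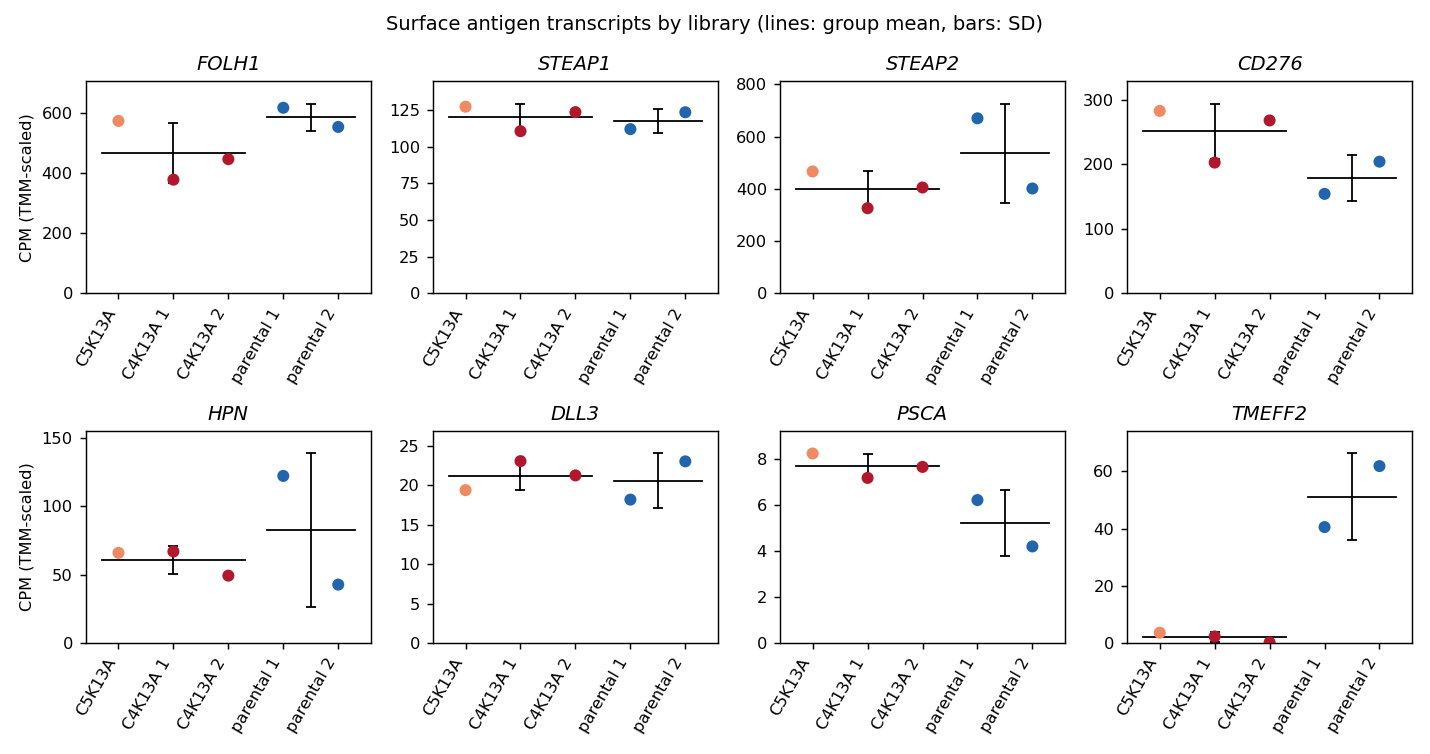
CPM of each detected antigen in the 5 libraries, each panel with its own axis from 0. Points are libraries (orange C5K13A, red C4K13A, blue parental), lines group means of the 3 clone and 2 parental libraries, and bars SD. The clone points of TMEFF2 lie near 0, and the blue points of HPN and STEAP2 are far apart, at 122 and 42.8 CPM and at 670 and 401 CPM.

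Among the enzymes, FOLH1 (ENSG00000086205, chr11:49146635-49208670, minus strand) was the most abundant antigen per length. It was detected at 574 CPM in C5K13A and at 379 and 447 CPM in C4K13A, against 618 and 554 CPM in parental cells. Both C4K13A libraries lay below both parental libraries, while C5K13A lay between the parental libraries. The log2 fold change was -0.33 ± 0.20 in both clones (SE, 95% interval -0.79 to 0.13, adjusted p = 0.587), -0.51 ± 0.19 in C4K13A (adjusted p = 0.326) and -0.02 ± 0.23 in C5K13A (adjusted p = 0.989). The value of both clones was -0.20 without C4K13A library 1 and -0.51 without C5K13A. C5K13A exceeded C4K13A by 0.48 ± 0.23 (SE, 95% interval -0.04 to 1.00), which did not pass the test (adjusted p = 0.806).

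FOLH1B, a near-identical copy of FOLH1, received 2.97% as many reads as FOLH1 in C5K13A and 2.49% and 2.54% in C4K13A, against 2.49% and 2.39% in parental cells. How reads that match both copies were counted is not given in the sources used here, so the division of reads between FOLH1 and FOLH1B is uncertain. The copy took few reads in every library, next to those of FOLH1.

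STEAP1 (ENSG00000164647, chr7:90154375-90164829, plus strand), the family member targeted by T-cell engagers and antibody-drug conjugates, was level across the libraries. It stood at 127 CPM in C5K13A and at 111 and 124 CPM in C4K13A, against 112 and 123.5 CPM in parental cells. The groups overlapped, and the log2 fold change in the clones was 0.03 ± 0.15 (SE, adjusted p = 0.957), with a 95% interval of -0.31 to 0.38.

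STEAP2 (ENSG00000157214, chr7:90167590-90238137, plus strand), a metalloreductase of iron and copper, begins 2.76 kb beyond the end of STEAP1 by its outermost GENCODE v29 start. Both of its promoter windows shown above lie further downstream. STEAP2 was detected at 467 CPM in C5K13A and at 326 and 405 CPM in C4K13A, against 670 and 401 CPM in parental cells. Parental library 1 was the highest and parental library 2 lay within the clone values. The log2 fold change of -0.42 ± 0.25 (SE, adjusted p = 0.569) was -0.01 without parental library 1 and -0.75 without parental library 2. In C4K13A alone it was -0.55 ± 0.26 (adjusted p = 0.455), -0.88 without parental library 2 and -0.14 without parental library 1. Either of these fits leaves a lone parental library and takes its spread from the C4K13A pair alone, so only effect sizes are given.

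STEAP2 had 3.67 reads per STEAP1 read in C5K13A and 2.95 and 3.28 in C4K13A, against 5.98 and 3.25 in parental cells. Parental library 1 alone carried the higher ratio. The 4 remaining ratios lay close together, although they come from cells of both kinds. Within the class of low residual ribosomal RNA the log2 ratio of STEAP2 in the clones over parental cells was -1.04, and within the class of high residual ribosomal RNA it was 0.12.

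HPN (ENSG00000105707, chr19:35040506-35066571, plus strand), hepsin, depended in a like way on the parental library used. It was detected at 66.0 CPM in C5K13A and at 67.0 and 49.3 CPM in C4K13A, against 122 and 42.8 CPM in parental cells. All 3 clone libraries lay between the parental libraries, whose log2 gap of 1.51 was wider than that of 99.0% of the genes tested, beside a median absolute gap of 0.286. The log2 fold change in the clones was -0.44 ± 0.38 (SE, adjusted p = 0.710). Leaving out parental library 1 turned it to 0.51, and it reached -1.01 without library 2. In C4K13A alone it was -0.50 ± 0.42 (adjusted p = 0.691), -1.07 without parental library 2 and 0.44 without parental library 1. Here too a lone parental library is left and the spread comes from the C4K13A pair alone, so only effect sizes are given. The log2 ratio of HPN was -0.87 in the class of low and 0.43 in the class of high residual ribosomal RNA, so the direction was not held within these classes. As each class holds only 1 parental library, this cannot be told apart from the choice of parental library. The antisense gene HPN-AS1 covers 10.3% of the exonic bases of HPN but had 31 reads over all libraries.

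**Figure D4:**
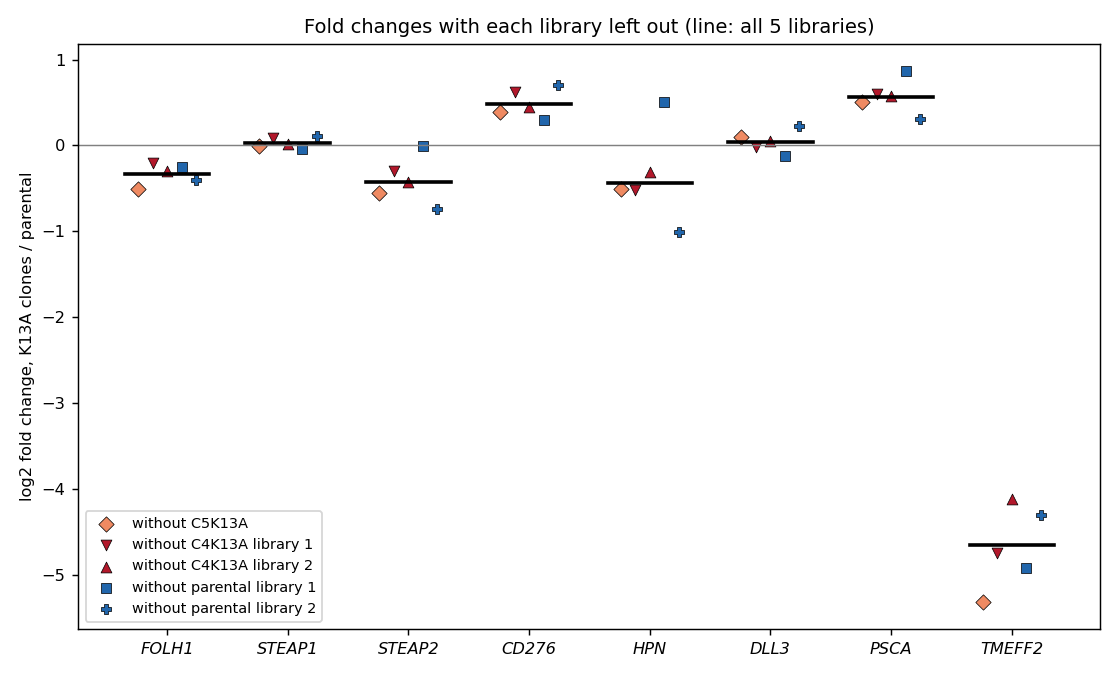
log2 fold change of each tested antigen in the K13A clones over parental cells (vertical axis), with lines for all 5 libraries and symbols for the fits with 1 library left out. Removing parental library 1 (squares) or parental library 2 (crosses) moves HPN to 0.51 or -1.01 and STEAP2 to -0.01 or -0.75, while TMEFF2 stays between -5.32 and -4.11.

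CD276 (ENSG00000103855, chr15:73683966-73714518, plus strand), an immune checkpoint ligand, had a positive fold change in every comparison, none of which passed the test. It was detected at 282 CPM in C5K13A and at 202 and 268 CPM in C4K13A, against 154 and 204 CPM in parental cells. C5K13A and C4K13A library 2 exceeded both parental libraries, while C4K13A library 1 was level with parental library 2, so the groups overlapped. The mean was 250.8 ± 42.6 CPM in the clones (SD, n = 3) and 179 ± 35.3 CPM in parental cells (SD, n = 2). The log2 fold change was 0.49 ± 0.21 (SE, 95% interval 0.01 to 0.96) with an unadjusted p of 0.0448 and an adjusted p of 0.447 in edgeR's quasi-likelihood test. It was 0.39 ± 0.22 in C4K13A (adjusted p = 0.541) and 0.66 ± 0.27 in C5K13A (adjusted p = 0.738). The C4K13A value was 0.18 without C4K13A library 2, 0.20 without parental library 1 and 0.61 without parental library 2, and the value of both clones was 0.30 without parental library 1. Within the classes of low and high residual ribosomal RNA the log2 ratios were 0.40 and 0.43.

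PSCA (ENSG00000167653, chr8:142670308-142682724, plus strand), a lipid-anchored protein of the LY6 family, was a low transcript. It was detected at 8.22 CPM in C5K13A and at 7.16 and 7.64 CPM in C4K13A, against 6.20 and 4.19 CPM in parental cells. All 3 clone libraries exceeded both parental libraries. Apart from TMEFF2 it was the only antigen whose clone and parental libraries did not overlap, and 28.5% of all genes tested shared that property. The log2 fold change was 0.56 ± 0.25 (SE, 95% interval -0.02 to 1.15) with an adjusted p of 0.467, and leaving out single libraries moved it between 0.31 and 0.87. JRK, a gene on the opposite strand, covers 20.9% of the exonic bases of PSCA. JRK stood at 35.2 CPM in C5K13A and at 36.6 and 34.8 CPM in C4K13A, against 42.4 and 30.9 CPM in parental cells. The strand setting of the counting is not given in the sources used here, so reads of the shared stretch cannot be told apart.

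DLL3 (ENSG00000090932, chr19:39498895-39508481, plus strand) was detected at similar levels throughout, at 19.4 CPM in C5K13A and 23.1 and 21.3 CPM in C4K13A, against 18.2 and 23.0 CPM in parental cells. The groups overlapped, and the log2 fold change was 0.04 ± 0.18 (SE, 95% interval -0.37 to 0.46, adjusted p = 0.952). CEACAM5 (ENSG00000105388, chr19:41708585-41729798, plus strand), the carcinoembryonic antigen, was not tested, and no fold change is given.

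Neighbouring genes within 500 kb were counted for each antigen, in both clones against parental cells. Of 72 tested protein-coding neighbours of the 9 antigens 0 were called by edgeR, 3 by DESeq2 and 0 by limma-voom. Of all 20649 genes these tools called 42, 555 and 11. An unadjusted p under 0.05 was found for 13 neighbours, beside 11% of all genes. The windows of STEAP1 and STEAP2 each held 5 tested neighbours, among them CFAP69, which lies 7.04 kb beyond STEAP2 and had a log2 fold change of -0.71 (adjusted p = 0.612). Tested neighbours numbered 17 around HPN (median log2 fold change -0.10, with FXYD3 at 0.11), 7 around CD276 (median 0.01, nearest NPTN at 0.04 and INSYN1 at 0.44) and 19 around DLL3 (median 0.08, nearest TIMM50 at 0.20 and EID2B at -0.11). There were 8 around PSCA (median -0.33, nearest THEM6 at 0.07 and ARC at -0.62) and 16 around CEACAM5 (median 0.00209, nearest DMAC2 at 0.10 and RPS19 at -0.09). The 3 protein-coding neighbours of FOLH1 were not tested.

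The genes whose levels followed each antigen most closely were sought among 11970 protein-coding genes, as the Euclidean distance between log2(CPM + 0.5) values centred on their mean over the 5 libraries. For TMEFF2 they were MMP16 (distance 1.01), GDF15 (1.95) and PELI2 (2.10), where the centred TMEFF2 profile itself has a length of 5.45. MMP16, a membrane-anchored matrix metalloproteinase, stood at 2.36 CPM in C5K13A and at 3.43 and 0.701 CPM in C4K13A, against 62.0 and 82.2 CPM in parental cells. Like TMEFF2, it was lowest in C4K13A library 2 and highest in parental library 2, a likeness built into its choice by distance. GDF15, a secreted TGF-beta family cytokine, stood at 99.7 CPM in C5K13A and at 62.2 and 38.2 CPM in C4K13A, against 1162 and 518 CPM in parental cells. PELI2, an E3 ubiquitin ligase, stood at 2.17 CPM in C5K13A and at 1.397 and 0.304 CPM in C4K13A, against 16.3 and 9.70 CPM in parental cells. GDF15 and PELI2 were also lowest in C4K13A library 2 but, unlike TMEFF2, highest in parental library 1.

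For the other antigens the nearest profiles were DERL2, RFFL and TCEA3 for FOLH1 (distances 0.0405, 0.0507 and 0.0684) and CLINT1, SNX3 and IPO13 for STEAP1 (0.0273, 0.0276 and 0.0302). STEAP2 was followed by SERINC1, PIGH and WDR5B (0.0891, 0.124 and 0.125), and HPN by GARNL3, TSPOAP1 and NME4 (0.263, 0.269 and 0.306). CD276 was followed by CSRNP1, CEBPA and DPP4 (0.0427, 0.123 and 0.125), PSCA by MICAL1, REEP6 and RGL3 (0.111, 0.159 and 0.162), and DLL3 by KCTD9, GTF2H3 and ATP6V0B (0.0335, 0.0479 and 0.0502). Profiles over 5 libraries that differ in depth and in residual ribosomal RNA describe these libraries only.

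The families of the antigens and other surface targets were counted with the antigens left out. Of 136 such genes 90 were tested in both clones against parental cells. Of these 0 were called, and 19 had an unadjusted p under 0.05, beside 11% of all genes. DESeq2 called 10, beside 555 of all 20649 genes, and limma-voom called 0, beside 11 of all genes. The median log2 fold change of the 90 was -0.06, beside -0.00474 over all genes. Against parental cells, 96 of the 136 were tested in each clone. In C4K13A 2 were called, 1 higher and 1 lower, beside 0.699% of all genes. An unadjusted p under 0.05 was found for 23, beside 12.2% of all genes. DESeq2 called 9 and limma-voom 2, beside 745 and 86 of all 22743 genes. In C5K13A 0 were called, with 16 at an unadjusted p under 0.05, beside 6.45% of all genes. DESeq2 called 4 and limma-voom 0 there, beside 235 and 0 of all 22743 genes.

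Among the enzyme families, 3 relatives of STEAP1 and STEAP2 were tested. Their log2 fold changes had a median of 0.29, with STEAP3, a ferrireductase, at 42.7 ± 2.93 CPM in the clones (SD, n = 3) and 34.9 ± 10.8 CPM in parental cells (SD, n = 2; 0.29 ± 0.21, SE, adjusted p = 0.650). Of the 7 FOLH1 relatives 5 were tested (median 0.15), and NAALADL2 averaged 54.8 CPM in the clones and 41.6 CPM in parental cells (0.40, adjusted p = 0.542). Of the 15 membrane serine proteases and inhibitors listed beside HPN, 11 were tested, 8 of them with a negative fold change (median -0.31). TMPRSS2, the androgen-regulated protease, averaged 201 ± 137 CPM in the clones (SD, n = 3) and 516 ± 279 CPM in parental cells (SD, n = 2; -1.36 ± 0.52, SE, adjusted p = 0.397). TMPRSS4 averaged 0.512 CPM in the clones and 1.67 CPM in parental cells (-1.71, adjusted p = 0.233).

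Among the immune and adhesion families, 4 of 9 relatives of CD276 were tested (median -0.23). NCR3LG1, the ligand B7-H6 of natural killer cells, averaged 28.0 CPM in the clones and 34.0 CPM in parental cells (-0.28, adjusted p = 0.520), and CD274, PD-L1, averaged 0.263 CPM in the clones and 0.409 CPM in parental cells. Of 11 relatives of CEACAM5 only CEACAM19 was tested (1.22, adjusted p = 0.470), and CEACAM6 had 0 counts. Of 20 proteins of the LY6 and uPAR families listed beside PSCA, 10 were tested (median -0.55), with LYPD6 at -2.05 and LYPD6B at -2.22 (adjusted p = 0.184 for each). TMEFF1, the only other tomoregulin, had 0 counts, 76.0% of its exonic bases being shared with the readthrough gene MSANTD3-TMEFF1, which also had 0 counts.

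Of 25 Notch ligands, receptors and targets listed beside DLL3, 20 were tested (median 0.10). HES1, a transcriptional target of Notch, averaged 41.0 ± 3.80 CPM in the clones (SD, n = 3) and 24.9 ± 4.21 CPM in parental cells (SD, n = 2), a log2 fold change of 0.72 ± 0.18 (SE, adjusted p = 0.216). HEY1, another target, averaged 3.47 CPM in the clones and 1.11 CPM in parental cells (1.65, adjusted p = 0.247).

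Of 46 other surface targets 37 were tested in both clones against parental cells (median -0.10), and those with the smallest adjusted p were GRPR, the gastrin-releasing peptide receptor (0.611 CPM in the clones and 3.43 CPM in parental cells, -2.47 ± 0.43, SE, adjusted p = 0.105), and ICAM1 (-0.84, adjusted p = 0.182). In C4K13A against parental cells 2 of 39 were called. PTK7, a pseudokinase receptor, fell to 4.26 ± 1.37 CPM in C4K13A, against 20.8 ± 4.84 CPM in parental cells (SD, n = 2 each; -2.29 ± 0.30, SE, adjusted p = 0.0203). TM4SF1, a tetraspanin-like protein, rose to 90.6 ± 19.8 CPM in C4K13A, against 29.7 ± 6.87 CPM in parental cells (SD, n = 2 each; 1.61 ± 0.24, SE, adjusted p = 0.0296), and missed the threshold without C4K13A library 2 (1.37, adjusted p = 0.0507).

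**Figure D5:**
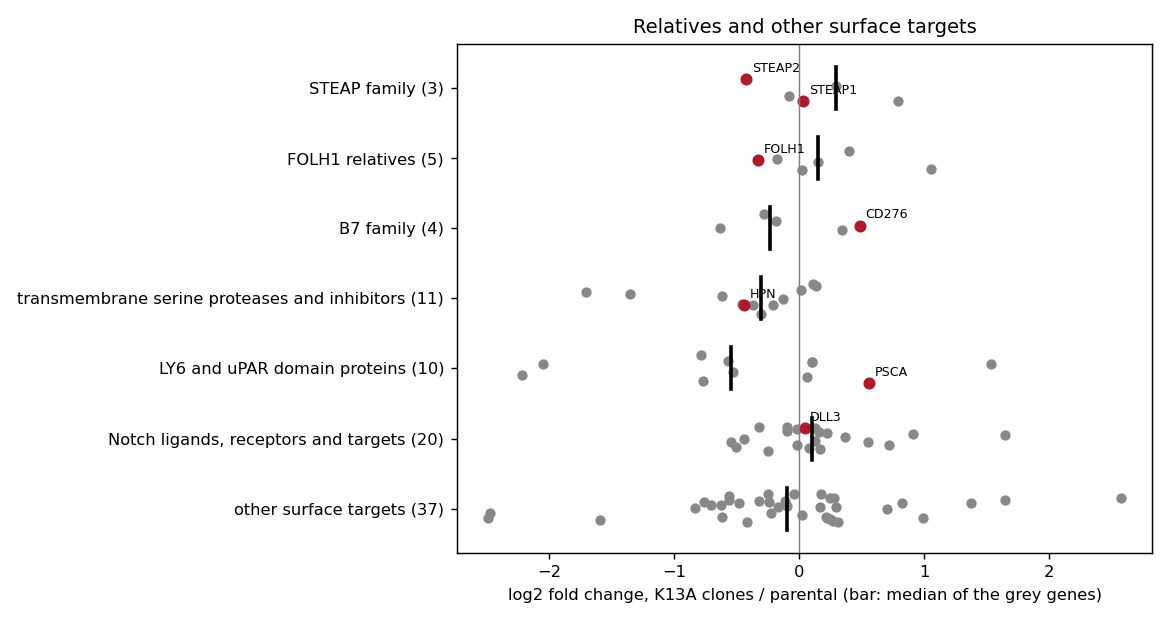
log2 fold change in the K13A clones over parental cells for the tested genes of 7 lists (rows, with the number of grey genes in brackets), with antigens in red and labelled and bars at the median of the grey genes. The medians lie between -0.55 (LY6 and uPAR proteins) and 0.29 (STEAP family), and no gene shown passed an adjusted p of 0.05 in this comparison.

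Markers of other cell types were read beside the antigens. The basal markers summed to 15.3 CPM in C5K13A and 20.7 and 24.4 CPM in C4K13A, against 15.6 and 12.3 CPM in parental cells. SNAI2 was 6.03 CPM of that sum in parental library 1, where ITGB4 was 9.32 CPM. In C4K13A SNAI2 rose to 21.6 ± 2.66 CPM, against 7.25 ± 1.71 CPM in parental cells (SD, n = 2 each; 1.57 ± 0.25, SE, adjusted p = 0.0370), and missed the threshold without C4K13A library 2 (adjusted p = 0.0935). The other basal marker tested in both clones, ITGB4, had a log2 fold change of -2.17 in the clones. In C4K13A against parental cells 2 of 3 tested basal markers were lower, each at an unadjusted p under 0.05 in edgeR's test. The neuroendocrine markers summed to 5.16 CPM in C5K13A and 4.63 and 4.25 CPM in C4K13A, against 12.7 and 6.71 CPM in parental cells, with ENO2, a neuronal enolase, at 2.17 CPM in the clones and 6.46 CPM in parental cells and SYP at 2.18 CPM in the clones and 2.70 CPM in parental cells. Endothelial and fibroblast markers stayed at or below 6.30 and 9.82 CPM, and PTPRC, the pan-leukocyte marker, at or below 0.0337 CPM. The part of these markers in the antigen values was not tested.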

How the data were processed

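RNA was measured in 5 libraries of C4-2B cells. Per the labels' protocols, total RNA was DNase-treated, depleted of ribosomal RNA by the RiboErase method and sequenced on an Illumina HiSeq. The authors deposited raw read counts per gene. Per the submitters' processing notes the tools were bcl2fastq, the aligner STAR (2.5) and the Subread counter featureCounts (1.4.6-p5). Build, annotation, strand setting and handling of multi-mapping reads: not given in the sources used here.

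Of 58812 identifiers 55297 matched GENCODE v29 (GRCh38), which gave symbols, positions and exon lengths. The counts were tested with edgeR 4.0.16 (filterByExpr, TMM factors, quasi-likelihood test, Benjamini-Hochberg adjustment over all genes, threshold 0.05; R 4.3.3). Clones pooled against parental cells were fitted as 2 groups (3 residual degrees of freedom), and single clones in a fit of 3 groups (2 residual degrees of freedom). CPM are counts over TMM-scaled totals. On simulated counts the share of false calls was above the threshold in every comparison, most of all between the clones. Alternatives were other normalization factors, filters, DESeq2 1.42.0, limma-voom (limma 3.58.1), dropping mitochondrial, small RNA and ribosomal RNA genes, a residual ribosomal RNA covariate (split at 200 CPM), the mean of the 2 clone effects, C4K13A libraries summed, a replicate block and leaving out each library. No 2 libraries of a group agreed within sampling noise.

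The members and lists were chosen with earlier results of these data known. All 9 members were named. From each other list called genes, or else those with the smallest adjusted p, were named, with the nearest tested neighbour on each side and the 3 most alike genes of at least 1 CPM. Some genes that this rule names are not reported here.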

Additional observations from a re-analysis of the deposited data

How the results depend on the processing

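For both K13A clones against parental cells, 0 antigens were called, against 1 (TMEFF2) without a filter, with DESeq2 and with the mean of the 2 clone effects, and 0 to 1 with single libraries left out. For C4K13A against parental cells the count of 1 became 0 under the stricter filter of 5 CPM (TMEFF2 at an adjusted p of 0.0861). It stayed at 1 without C5K13A. Leaving out a C4K13A or parental library leaves 1 library in that group, so no count is given for those fits. The count of 1 is thus not shown to hold in them. Without parental library 2 the C4K13A values of STEAP2 and HPN were -0.88 and -1.07, and without parental library 1 they were -0.14 and 0.44. The C5K13A counts and the TMEFF2 tallies below include fits with such a lone library. For C5K13A against parental cells and for C5K13A against C4K13A, the count of 0 became 1 without a filter and lay between 0 and 1 with libraries left out. The causes were not tested. TMEFF2 passed in 5 of 15 alternatives for both clones (-5.32 to -4.11), 13 of 14 for C4K13A (-7.91 to -4.47) and 3 of 12 for C5K13A (-4.10 to -3.49), and was negative in each of these. Fits of single clones without a C4K13A library take the spread from the parental pair alone, with the lone clone libraries assumed to vary like it. Those without a parental library take it from the C4K13A pair alone. All alternatives reuse the same libraries, so the number passing is no measure of independent support. The ribosomal RNA covariate and the replicate block split the C4K13A and parental libraries alike. Without a filter 1167 genes were called for both clones and 1346 for C4K13A. Over all genes the numbers called by edgeR, DESeq2 and limma-voom were 42, 555 and 11 for both clones, 159, 745 and 86 for C4K13A, 11, 235 and 0 for C5K13A, and 15, 182 and 0 between the clones.

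The sign turned in small or library-dependent values. STEAP1 in both clones was -0.0075 with upper-quartile factors and -0.011 with the stricter filter, and in C4K13A it was 0.0012 with RLE factors and with DESeq2. HPN in C5K13A was 0.34 with the ribosomal RNA covariate. With single libraries left out, log2 fold changes in both clones ran from -0.037 to 0.11 (STEAP1), -1.01 to 0.51 (HPN) and -0.12 to 0.23 (DLL3). In C4K13A they ran from -0.087 to 0.073 (STEAP1), -1.07 to 0.44 (HPN) and -0.058 to 0.29 (DLL3). In C5K13A they ran from -0.10 to 0.053 (FOLH1), -0.52 to 0.22 (STEAP2), -0.88 to 0.63 (HPN) and -0.25 to 0.098 (DLL3), and between the clones from -0.020 to 0.43 (HPN).

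Replicate numbers are shared by C4K13A and parental libraries, but with 2 pairs they do not establish pairing (correlation of deviations 0.261 over 20649 genes). With the replicate block 1 antigen was called in C4K13A, TMEFF2 (-5.56, adjusted p = 8.92e-05), and 885 genes in all. The 3 called genes that are no members were run through the same alternatives after the data were seen, and kept their direction. PTK7, TM4SF1 and SNAI2 missed the threshold with the stricter filter (adjusted p = 0.0638, 0.0755 and 0.0701), and TM4SF1 and SNAI2 also without C4K13A library 2. With 2 parental libraries and 1 C5K13A library, intervals are wide, and depth limits TMEFF2 in C4K13A library 2 (9 reads) and CEACAM5.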

Other observations

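In C5K13A against parental cells the relatives and surface targets with the smallest adjusted p in their lists were read as values, since 0 of 96 passed. TRPM8, a cold-sensitive ion channel of prostate epithelium, stood at 25.6 CPM in C5K13A, against 70.4 and 51.2 CPM in parental cells (log2 fold change -1.24 ± 0.31, SE, adjusted p = 0.417 in edgeR's quasi-likelihood test). MET, the hepatocyte growth factor receptor, had 2 reads in C5K13A, against 32 and 62 reads in parental cells (adjusted p = 0.475). NAALAD2, a close relative of FOLH1, stood at 7.38 CPM in C5K13A, against 1.11 and 2.28 CPM in parental cells (2.13 ± 0.56, SE, adjusted p = 0.462). Among the luminal markers KLK2, a kallikrein of prostate secretions, stood at 114.5 CPM in C5K13A, against 511 and 298 CPM in parental cells (-1.81 ± 0.39, SE, adjusted p = 0.289).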
